A study of Homo sapiens with 4 samples.

Results

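Enzymes that make and interconvert amino acids were examined here at the level of open chromatin around their genes. The set holds 10 genes, PHGDH, PSAT1, PSPH, SHMT2, ASNS, PYCR1, ALDH18A1, GPT2, BCAT1 and ASS1, of 19962 protein-coding genes in GENCODE release 44. They were chosen by name for their role in amino-acid synthesis, with earlier results of these data known, and all 10 were found in the annotation. For each gene, every ATAC-seq peak that overlapped the gene body or the 50 kb on either side of it was taken, which gave 88 of 149858 accessible regions of the genome.

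ATAC-seq marks open chromatin with a transposase that inserts sequencing adapters into accessible DNA. It was done in MCF10A cells, human mammary epithelium that grows as a non-transformed line, which carried TAZ-4SA under a tetracycline-inducible promoter. TAZ-4SA is an activated form of TAZ, a transcriptional coactivator of the Hippo pathway that reaches DNA mainly through TEAD proteins. Dox cells received 0.05 µg/ml doxycycline for 72 h and No Dox cells received none, so the transduced line and its serum-containing medium with EGF, hydrocortisone, cholera toxin and insulin were common to both groups, and doxycycline itself was present only in Dox cells. Each condition had 2 biological replicates of 50000 cells per reaction, and the authors pooled them into 1 peak list per condition. The spread between replicates is therefore unknown, as is the depth of each library, and no test was possible. Shares are given with exact Clopper-Pearson intervals of 95%, which account for counting error and nothing else.

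Dox cells gave 84353 peaks, against 117740 peaks in the No Dox list, so a region is more likely to be No-Dox-only before any gene is considered. Peaks that overlapped or touched were merged into regions, called Dox-only, No-Dox-only or shared after the lists that held them. The fold of a peak is the authors' enrichment at its summit over a background that is constant within a list, with a lowest value of 2.71 in Dox and 2.54 in No Dox. Because the backgrounds differ, the log2 ratio of Dox over No Dox folds was centred on the median of all 48557 shared regions, which was −0.076 before centring. As a check of the labelled cells, 8 of 10 mammary epithelial genes had a promoter peak in both lists, with KRT14 in neither and TP63 in Dox alone, whereas 6 of 8 genes of blood, endothelium, liver and neurons had none in either list. The exceptions among those 8 genes were CD14 in both lists and PTPRC in No Dox alone. Of all coding genes, 65.3% had a promoter peak in both lists and 24.9% in neither, so the mammary count by itself is a weak check.

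Serine is made from a glycolytic intermediate by PHGDH, PSAT1 and PSPH acting in turn, and SHMT2 then splits serine in mitochondria into glycine and a carbon unit carried by folate. ASNS makes asparagine from aspartate and glutamine. ALDH18A1 and PYCR1 catalyse the opening and the closing reaction of proline synthesis from glutamate. GPT2 and BCAT1 are transaminases, for alanine and for the branched-chain amino acids, and ASS1 joins citrulline and aspartate on the way to arginine. Several of these genes are known targets of ATF4, the transcription factor of the amino-acid and stress response, which binds composite C/EBP-ATF elements as a dimer with C/EBP proteins.

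The sequence at the strongest summit is shown for the regions on which the description below turns, because they hold the sites that the lists place in open chromatin. All are the plus strand of hg38, 200 bases long and written 5′ to 3′, and capitals mark matches to any of 6 fixed motifs on either strand. The motifs were TEAD (CATTCC), AP-1 (TGANTCA), the C/EBP-ATF element (TGATGNAA), the E-box (CACGTG), NFY (CCAAT) and the GC box (GGGCGG). The PHGDH, PSAT1, SHMT2 and ASNS promoters were shared regions, and the PYCR1 promoter was Dox-only.
PHGDH promoter (chr1:119711830-119712029): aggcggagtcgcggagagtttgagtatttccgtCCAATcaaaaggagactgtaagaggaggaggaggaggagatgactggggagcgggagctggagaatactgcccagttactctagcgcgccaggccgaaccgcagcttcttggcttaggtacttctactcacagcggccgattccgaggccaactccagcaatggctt
PSAT1 promoter (chr9:78297036-78297235): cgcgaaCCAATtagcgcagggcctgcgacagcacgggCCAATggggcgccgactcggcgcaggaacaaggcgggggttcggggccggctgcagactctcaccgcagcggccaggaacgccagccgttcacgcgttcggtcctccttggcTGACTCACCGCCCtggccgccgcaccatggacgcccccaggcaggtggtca
SHMT2 promoter (chr12:57230025-57230224): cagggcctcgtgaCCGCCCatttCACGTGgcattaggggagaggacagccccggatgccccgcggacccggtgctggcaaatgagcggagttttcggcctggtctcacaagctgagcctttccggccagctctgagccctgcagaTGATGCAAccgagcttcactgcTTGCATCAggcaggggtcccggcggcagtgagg
ASNS promoter (chr7:97872302-97872501): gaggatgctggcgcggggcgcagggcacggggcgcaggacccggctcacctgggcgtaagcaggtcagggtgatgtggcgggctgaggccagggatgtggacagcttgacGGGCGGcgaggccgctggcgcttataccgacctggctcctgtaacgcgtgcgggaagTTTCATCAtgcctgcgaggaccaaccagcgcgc
PYCR1 promoter (chr17:81937196-81937395): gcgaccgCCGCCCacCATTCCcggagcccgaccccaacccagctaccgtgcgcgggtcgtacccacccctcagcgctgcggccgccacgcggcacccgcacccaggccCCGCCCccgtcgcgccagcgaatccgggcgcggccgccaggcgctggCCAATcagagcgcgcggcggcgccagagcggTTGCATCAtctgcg

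The next 3 sequences lie away from a canonical promoter. The BCAT1 sequence belongs to the Dox-only region with the highest fold among the 10 genes. The PSAT1 upstream sequence belongs to the No-Dox-only region with the highest fold, and the PSPH downstream sequence to the shared region with the lowest ratio of Dox over No Dox.
BCAT1 intron 1 (chr12:24946955-24947154): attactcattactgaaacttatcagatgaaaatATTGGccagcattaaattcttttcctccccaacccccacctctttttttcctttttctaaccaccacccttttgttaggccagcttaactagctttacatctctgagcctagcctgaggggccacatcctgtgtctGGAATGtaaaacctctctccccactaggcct
PSAT1 upstream (chr9:78278366-78278565): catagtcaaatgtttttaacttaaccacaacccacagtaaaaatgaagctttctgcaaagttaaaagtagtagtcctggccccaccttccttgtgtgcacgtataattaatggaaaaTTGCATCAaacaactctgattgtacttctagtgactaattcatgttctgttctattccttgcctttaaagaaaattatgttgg
PSPH downstream (chr7:56009709-56009908): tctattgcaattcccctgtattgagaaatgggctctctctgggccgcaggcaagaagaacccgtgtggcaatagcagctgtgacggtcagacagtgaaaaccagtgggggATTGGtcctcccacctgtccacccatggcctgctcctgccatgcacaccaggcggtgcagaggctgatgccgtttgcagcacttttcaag

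Open chromatin within 1 kb of a transcription start site (TSS) was present in both conditions at 8 of the 10 genes. PYCR1 had a promoter peak in Dox alone and BCAT1 in No Dox alone, and no gene lacked one in both lists. Of all coding genes, 65.3% had a promoter peak in both lists, 5.85% in Dox alone, 3.92% in No Dox alone and 24.9% in neither. With the canonical TSS of each gene only, the same 8 genes had a peak in both lists, PYCR1 in Dox alone and BCAT1 in neither, against 60.1% of coding genes in both, 5.58% in Dox alone, 3.84% in No Dox alone and 30.5% in neither. In a bulk assay, a larger share of cells open at a site and wider opening in each cell cannot be told apart.

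The 8 shared canonical promoters were strong peaks, with a median fold of 15.7 in Dox and 19.0 in No Dox, against 8.36 and 8.90 over the 12006 shared canonical promoters of all coding genes. The centred log2 ratio was above 0 in 3 of the 8 and its median was −0.19, beside −0.041 and 45.6% above 0 for all coding genes. The genes of the serine pathway lay on both sides of 0. Folds were lower in Dox cells at the 3 promoters of PHGDH, PSAT1 and PSPH, and higher at that of SHMT2. The PSPH promoter is also that of the neighbouring gene CCT6A. None of the 3 was lower by 1.5-fold after centring. Ranked among shared canonical promoters, PHGDH lay at percentile 29.9 in Dox and 53.9 in No Dox, and SHMT2 at 37.3 and 2.65. PSAT1 lay at 86.9 in Dox and 91.6 in No Dox, and PSPH at 91.8 and 93.6.

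PHGDH (chr1:119648411-119744218, plus strand), the entry enzyme of the pathway, had a fold of 6.10 in Dox and 9.32 in No Dox at its canonical TSS, a centred log2 ratio of −0.53. The region spanned chr1:119711736-119713165 and its ratio lay at percentile 7.46 of shared canonical promoters. The annotated gene also starts far upstream, where its TSS shares a region with the ZNF697 promoter (chr1:119646779-119648819) that had folds of 12.9 in Dox and 18.9 in No Dox and a centred ratio of −0.47. A Dox-only peak of fold 3.62 lay in intron 1 (chr1:119713641-119714023), 1.84 kb from the canonical TSS and within 1 kb of another TSS of PHGDH. Of the 5 shared regions in the PHGDH window 4 had a centred ratio below 0.

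PSAT1 (chr9:78297125-78330093, plus strand), the transaminase of the pathway, had a fold of 16.5 in Dox and 23.5 in No Dox at its promoter, a centred ratio of −0.43 at percentile 12.6. Its promoter region (chr9:78296144-78298535) was 2392 bp wide. It was the only one of the 9 canonical promoter regions with an AP-1 match, against 4.11% of regions at canonical promoters of coding genes. The PSAT1 window held no Dox-only region. Its 2 No-Dox-only regions lay upstream, and the stronger of them (chr9:78277907-78278694) had a fold of 9.32, at percentile 90.8 of the No Dox list. It lay 18.7 kb from the TSS inside the neighbouring gene CEP78, and it held a C/EBP-ATF match 17 bp from its summit. The other (chr9:78288406-78288928) had a fold of 6.35 and lay 8.46 kb from the TSS.

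PSPH (chr7:56011051-56051604, minus strand), the phosphatase that releases serine, shares its promoter with CCT6A, a chaperonin subunit gene. This region (chr7:56050491-56052286) had a fold of 19.7 in Dox and 25.8 in No Dox, a centred ratio of −0.32 at percentile 20.8 of shared canonical promoters. At a TSS inside PSPH (chr7:56033481-56034820) the folds were 7.23 in Dox and 14.6 in No Dox, a ratio of −0.94. Just downstream of PSPH (chr7:56009033-56010240) the folds were 5.43 in Dox and 16.9 in No Dox, and this ratio of −1.57 was the lowest of the 10 genes. The highest was in the same window, at chr7:55977722-55978284 in NIPSNAP2, with folds of 10.2 in Dox and 3.60 in No Dox and a ratio of 1.57. The PSPH window thus held both extremes, and its 8 shared regions had a median of −0.20. PSPH has 1 named pseudogene on the same chromosome, near it, so reads from near-identical copies may have been placed at either.

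SHMT2 (chr12:57229573-57234935, plus strand) had the promoter with the largest ratio of the set. Its region in intron 1 (chr12:57229735-57230397), with the summit 0.41 kb from the canonical TSS, had a fold of 6.78 in Dox and 3.18 in No Dox, a centred ratio of 1.17 at percentile 99.8 of shared canonical promoters. The peak was 663 bp wide in Dox and 327 bp wide in No Dox. The No Dox peak lay at percentile 31.9 of its list, and with a q-value of at most 1e-05 the SHMT2 promoter was open in Dox alone. Around the summit stood 2 C/EBP-ATF matches, TGATGCAA at 45 bp and TTGCATCA at 67 bp, and an E-box at 77 bp on the other side.

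ASNS (chr7:97851677-97872542, minus strand) had a fold of 16.7 in Dox and 26.5 in No Dox at its promoter (chr7:97871437-97872889), a centred ratio of −0.59 at percentile 5.76. A C/EBP-ATF match, TTTCATCA on the plus strand, lay 67 bp from the summit. The promoter was the sole region in the ASNS window of 121 kb, which holds no other coding gene. Of all coding genes 6.84% had at most 1 region in their window.

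In the proline pathway, the promoter of PYCR1 differed between the lists and that of ALDH18A1 hardly did. PYCR1 (chr17:81932384-81942412, minus strand) had a Dox peak of fold 4.29 over its canonical TSS (chr17:81937102-81937493), at percentile 54.9 of the Dox list, and the nearest No Dox peak lay 9.10 kb away with a fold of 4.66. The region held a TEAD match 85 bp from the summit and a C/EBP-ATF match 86 bp from it on the opposite side. ALDH18A1 (chr10:95605941-95656711, minus strand) had folds of 14.9 in Dox and 16.3 in No Dox at its promoter (chr10:95655657-95657269), a centred ratio of −0.052 that lay on the other side of 0 when folds were ranked among promoters, at percentile 83.5 in Dox and 80.2 in No Dox.

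GPT2 (chr16:46884362-46931289, plus strand) had the strongest promoter of the set in Dox, with a fold of 24.2 in Dox and 21.6 in No Dox (chr16:46883565-46885136) and a centred ratio of 0.24. A weak No-Dox-only peak of fold 3.18 (chr16:46885739-46886237) lay in intron 2, within 1 kb of another GPT2 TSS. ASS1 (chr9:130444961-130501274, plus strand) had folds of 7.69 in Dox and 7.20 in No Dox in the widest region of the set, 2708 bp (chr9:130444018-130446725). Its centred ratio was 0.17, while the percentile of the fold within its own list was 83.5 in Dox and 85.5 in No Dox. In intron 1 of ASS1 a further promoter region (chr9:130450996-130452351) had folds of 6.33 in Dox and 4.45 in No Dox, a ratio of 0.58 that lay at the 1.5-fold threshold itself. A Dox-only peak of fold 2.94 (chr9:130465954-130466197) lay in intron 5 near an internal TSS. ASS1 has 14 named pseudogenes, ASNS 5 and PSAT1 4. Mapping between similar copies is a possible limit for these genes, and it was not examined.

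BCAT1 (chr12:24810024-24949101, minus strand) had no peak within 1 kb of its canonical TSS in either list. The nearest Dox peak lay 1.87 kb from it in intron 1 (chr12:24946863-24947227) with a fold of 8.59, at percentile 86.7 of the Dox list, and the nearest No Dox peak lay 11.1 kb from it with a fold of 5.72. The intron 1 region was Dox-only, and it held a TEAD match 69 bp from its summit. Its No Dox promoter call rested on a peak of fold 3.18 at another TSS (chr12:24903019-24903379), 46.0 kb from the canonical one. With a q-value of at most 1e-05 that call was lost, and with a promoter of 3 kb BCAT1 had a peak in both lists.

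**Figure D1:**
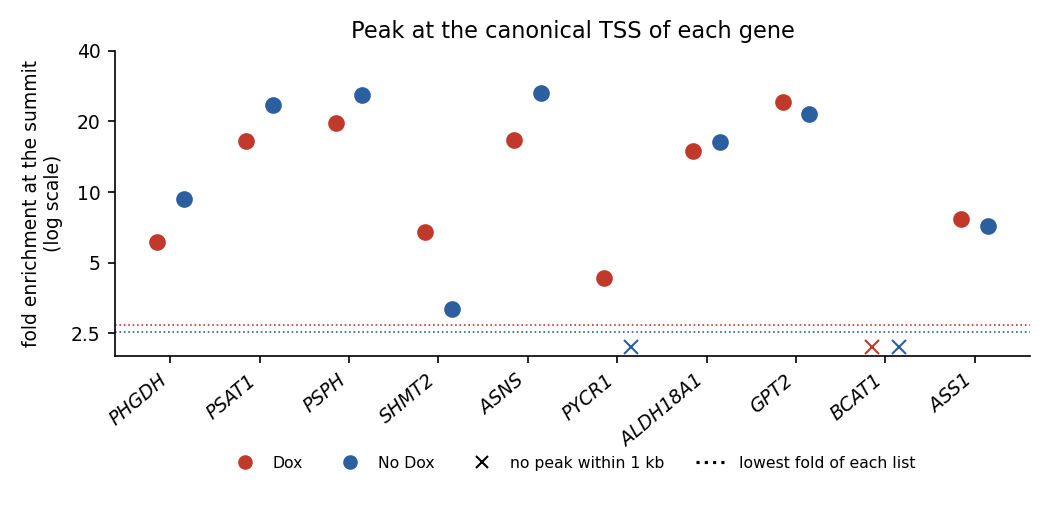
Fold enrichment of the peak at the canonical TSS of each gene, on a log scale, with Dox in red left of No Dox in blue, crosses for no peak within 1 kb and dotted lines for the lowest fold of each list. PHGDH, PSAT1, PSPH and ASNS lay lower in Dox than in No Dox, SHMT2 lay at 6.78 in Dox against 3.18 in No Dox, PYCR1 had a Dox peak alone and BCAT1 had none.

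Across the windows of the 10 genes the Dox list alone held 29 regions, the No Dox list alone 21 and both lists 38. The Dox-only class took 22.3% of all 149858 regions and the No-Dox-only class 45.3%. In the windows of all coding genes, which hold 99821 regions, the Dox-only class took 25.2% and the No-Dox-only class 38.2%. The Dox-only share of condition-only regions was thus 58% around the 10 genes (interval 43.2 to 71.8%, n = 50), against 33.0% over all regions (32.7 to 33.3%, n = 101301) and 39.7% in the pooled windows of all coding genes (39.3 to 40.1%). Taken gene by gene, the median share was 50% over the 9 genes of the set with a condition-only region, against 58.3% over the 17399 such coding genes. With lists cut to equal length the counts were 29 Dox-only and 14 No-Dox-only (67.4%, interval 51.5 to 80.9%), against 49.1% over all regions. The share in windows of all coding genes, which was above that of all regions with the full lists, is not given for lists of equal length.

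The genes differed among themselves in this respect. SHMT2 had 7 Dox-only regions and 1 No-Dox-only region, PYCR1 had 5 and 1, BCAT1 had 6 and 3, and ASS1 had 5 and 2. ALDH18A1 had no Dox-only and 4 No-Dox-only regions, PSAT1 had none and 2, PHGDH had 2 and 3, and GPT2 had 1 and 2. PSPH had 3 of each, and ASNS had neither kind. More Dox-only than No-Dox-only regions were thus found at 4 genes and the reverse at 4, against 44.7% and 33.5% of coding genes. The windows held a median of 9.5 regions, against 6 per coding gene with an interquartile range of 4 to 11.

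**Figure D2:**
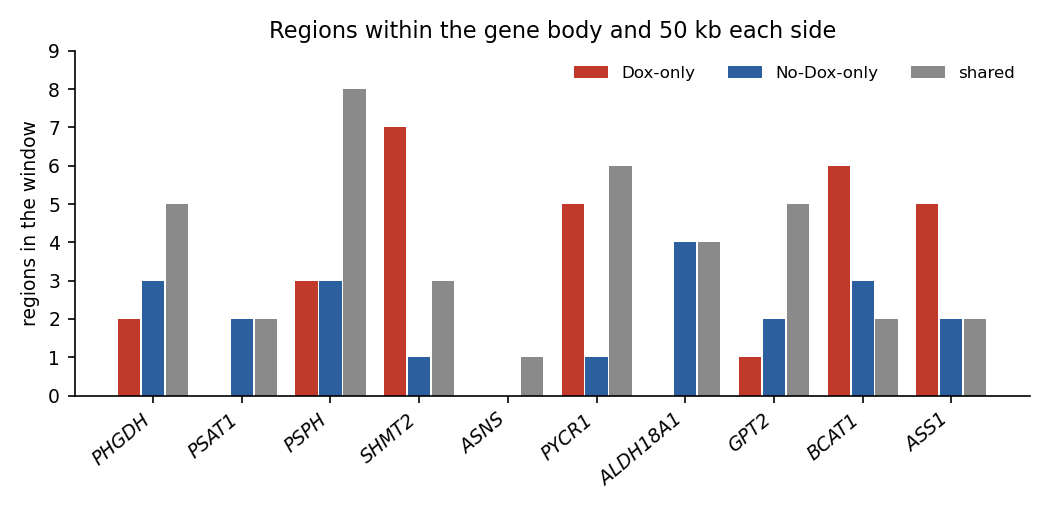
Number of Dox-only (red), No-Dox-only (blue) and shared (grey) regions in the gene body and 50 kb on either side of each gene. SHMT2, PYCR1, BCAT1 and ASS1 held 5 to 7 Dox-only regions each, ALDH18A1 and PSAT1 held none, and ASNS held 1 shared region alone.

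Condition-only regions were weak and narrow next to shared ones. Their median fold was 3.62 in Dox-only regions (2.94 to 8.59) and 3.60 in No-Dox-only regions (2.54 to 9.32), beside 3.62 and 3.39 over all condition-only regions of the genome. Median widths were 346 bp for Dox-only, 426 bp for No-Dox-only and 1193 bp for shared regions. Of the 88 regions 16 lay at a promoter of a gene of the set, of which 3 were Dox-only, 2 No-Dox-only and 11 shared. At the promoter of another coding gene alone lay 12 shared regions, 5 Dox-only ones and 4 No-Dox-only ones. For 41 of the 88 the nearest coding TSS was that of the gene itself, and these comprised 15 Dox-only and 7 No-Dox-only regions (68.2%, interval 45.1 to 86.1%). Under the same rule the share over all coding genes was 40.04% (39.7 to 40.4%).

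By fold, the strongest Dox-only region of the set was that of BCAT1 intron 1. The strongest Dox-only region in the SHMT2 window lay at chr12:57239165-57239521 in NDUFA4L2 with a fold of 5.20. In the PSPH window it lay at chr7:55983434-55983816 with a fold of 4.75 and a TEAD match, and in the PYCR1 window a fold of 4.52 was found both at the SIRT7 promoter (chr17:81917644-81918423) and near ASPSCR1 (chr17:81980666-81981735). The highest Dox-only folds were 3.62 for PHGDH, 3.62 for ASS1 (chr9:130431207-130431874) and 3.16 for GPT2 (chr16:46899624-46899867). Many of these regions thus lie in or beside other genes, to which a peak list cannot assign them.

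Among the No-Dox-only regions, the region of fold 9.32 upstream of PSAT1 was followed by one of fold 6.57 at the SUMF2 promoter in the PSPH window (chr7:56076639-56077167), with an AP-1 match, and by the other PSAT1 region of fold 6.35. The highest No-Dox-only fold was 4.45 in the PHGDH window (chr1:119784116-119784755), 4.45 in the PYCR1 window at MAFG (chr17:81926506-81926766), 4.02 for ASS1 (chr9:130427088-130427526), 3.60 for ALDH18A1 (chr10:95600829-95601593) and 3.39 for BCAT1 (chr12:24768649-24768945). In the SHMT2 window it was 3.60 at the NXPH4 promoter (chr12:57216556-57216981), and for GPT2 it was the peak of fold 3.18 described above. The PSAT1 pair and the SUMF2 region were the No-Dox-only regions with folds above 5.

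**Figure D3:**
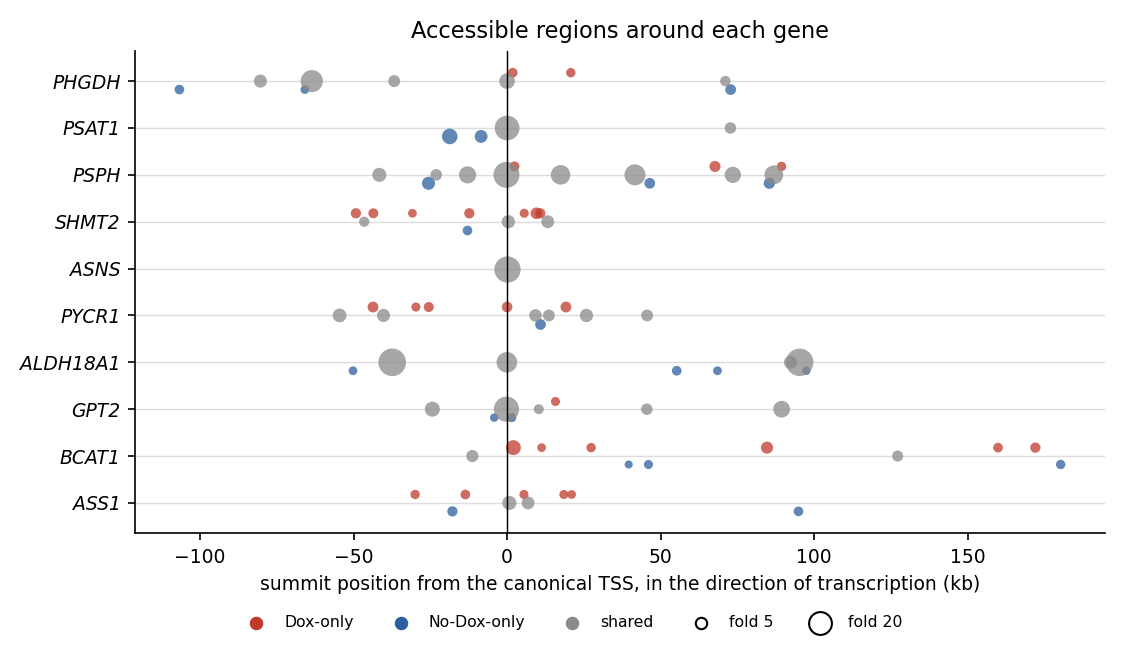
Position of each region's summit relative to the canonical TSS of its gene, in kb along the direction of transcription, with Dox-only in red, No-Dox-only in blue, shared in grey and the area of a symbol proportional to the higher fold. The largest shared symbol is the TCTN3 promoter in the ALDH18A1 window, with a fold of 24.6 in Dox and 29.2 in No Dox, and the largest condition-only symbols are the Dox-only region in BCAT1 intron 1 and the No-Dox-only region 18.7 kb upstream of PSAT1.

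Among the 38 shared regions 18 had a centred ratio above 0 and 20 below, with a median of −0.064 and a range of −1.57 to 1.57. The sign of this median turned with 100 kb on either side (0.061), without PHGDH (0.070) and as a difference of percentiles (3.73 points). Of the 38 shared regions, 5 were at least 1.5-fold higher in Dox and 4 at least 1.5-fold lower, beside 11.0% and 10.1% of all shared regions. Those higher were the NIPSNAP2 region in the PSPH window, the SHMT2 promoter, the ASPSCR1 promoter in the PYCR1 window (chr17:81976653-81977905, folds of 6.56 in Dox and 3.81 in No Dox, ratio 0.86), a region downstream of ALDH18A1 and the ASS1 intron 1 region. Those lower were the downstream and the internal region of PSPH, a region 11.3 kb upstream of BCAT1 (chr12:24960181-24960688, folds of 3.39 in Dox and 5.72 in No Dox, ratio −0.68) and the ASNS promoter. In the PYCR1 window all 6 shared regions were above 0, with a median of 0.49, although none lay at PYCR1 itself.

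**Figure D4:**
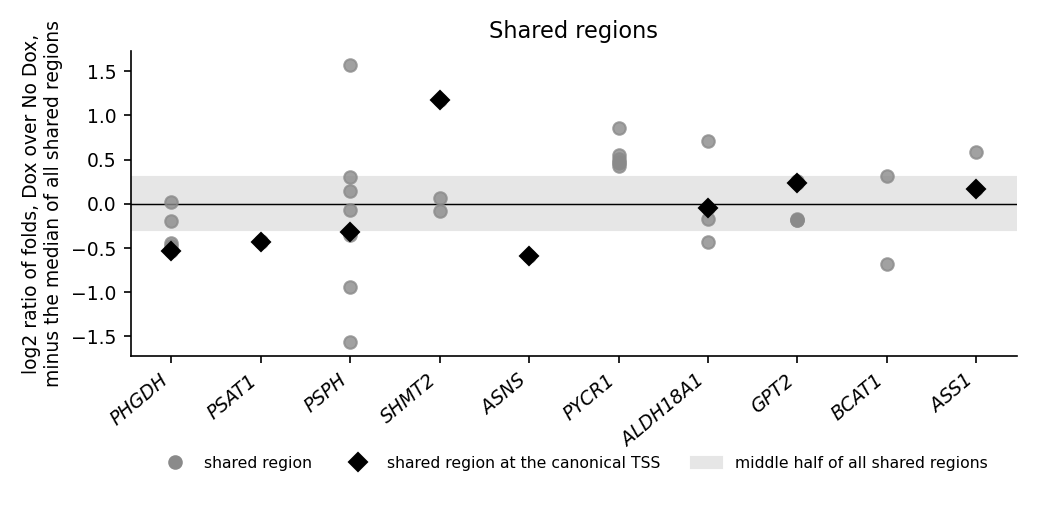
Log2 ratio of folds, Dox over No Dox, of each shared region after subtracting the median of all shared regions, with black diamonds for regions at the canonical TSS and a grey band between the quartiles of all shared regions (−0.29 to 0.31). The SHMT2 promoter lies at 1.17, the ASNS promoter at −0.59, the 6 regions around PYCR1 all lie above 0, and PSPH spans −1.57 to 1.57.

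The GC content of the regions went with their class. Within 100 bp of the summit the median GC content was 61.5% in Dox-only regions of the 10 genes and 49% in No-Dox-only ones, against 51% and 45% over all regions. Over all regions the Dox-only share of condition-only regions was 21.5% at a GC content under 40%, 26.0% between 40 and 50%, 38.5% between 50 and 60% and 63.4% above 60%. Around the 10 genes it was 4 of 5, 5 of 15, 4 of 9 and 16 of 21 in these classes. The share over all regions became 43.5% when it was weighted to the GC classes of the 10 genes' regions. The windows of SHMT2, PYCR1 and ASS1, whose DNA has a GC content of 54.4%, 58.2% and 53.6%, held 17 Dox-only and 4 No-Dox-only regions (81.0%, interval 58.1 to 94.6%), beside 73.7% in the pooled windows of the 4459 coding genes with a GC content above 50%. The other 7 windows held 12 and 17 (41.4%, interval 23.5 to 61.1%), beside 34.8% in the windows of the 15503 coding genes at or below 50%. The part of GC content in the counts of the 10 genes was not tested. In shared regions, Pearson's correlation of the ratio with GC content was 0.0023 across all 48557, which come from the same 2 lists and are not independent.

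**Figure D5:**
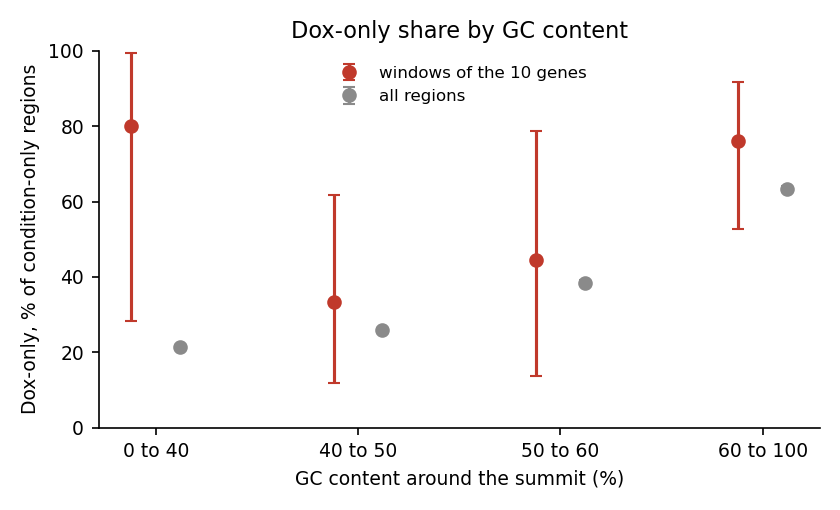
Dox-only regions as a percentage of condition-only regions in 4 classes of GC content around the summit, for the windows of the 10 genes (red, left) and for all regions (grey, right), with exact 95% intervals for counting error that are smaller than the symbols for all regions. The share over all regions is 21.5% in the lowest class and 63.4% in the highest, and the red intervals are wide because each class holds 5 to 21 regions.

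Motif matches within 100 bp of the summit were counted in the 88 regions and in all regions. TEAD matches were found in 11 (12.5%, against 15.3% of all regions) and AP-1 matches in 13 (14.8%, against 17.1%). By class, TEAD matches stood in 5 of 29 Dox-only regions (17.2%, against 20.5% of all Dox-only regions) and in 2 of 21 No-Dox-only regions (9.52%, against 12%). C/EBP-ATF matches were found in 7 regions (7.95%, against 4.08%), E-boxes in 7 (7.95%, against 3.26%), NFY matches in 19 (21.6%, against 24.6%) and GC boxes in 20 (22.7%, against 11.5%). The reversed TEAD sequence, CCTTAC, was counted as a control and stood in 6 (6.82%, against 5.76%). It was found in 4 of 29 Dox-only regions (13.8%, against 5.58%) and 2 of 21 No-Dox-only regions (9.52%, against 6.20%), so in Dox-only regions its count was close to that of TEAD. No match overlapped that of another motif in these regions.

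At the 9 canonical promoter regions, C/EBP-ATF matches were found at 3, SHMT2, ASNS and PYCR1, against 0.920% of the 13370 regions at canonical promoters of coding genes. They stood beside promoters with a higher fold in Dox at SHMT2, a lower one in Dox at ASNS and a peak in Dox alone at PYCR1, as printed above. TEAD matches were found at PSPH and PYCR1, against 7.0% of these regions, E-boxes at SHMT2 and ALDH18A1, against 6.05%, and NFY matches at PHGDH, PSAT1, PSPH and PYCR1, against 25.5%. GC boxes were found at 6 of the 9, against 60.4%. An AP-1 match was found at PSAT1 alone, against 4.11%, and the reversed TEAD control at 0 of the 9, against 4.32%. Each match is a run of letters in the reference genome, and no binding was measured here.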

How the data were processed

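ATAC-seq peak lists of 2 conditions, Dox and No Dox, were used. Reads were aligned by the authors with BWA (build hg38), the 2 replicates of a condition were pooled, and MACS2 was run on each pool with an FDR cutoff at 0.05. The deposited fold enrichment at the summit of each peak is a ratio over a background that was constant within each list, since Dox folds came in steps of 0.226 and No Dox folds in steps of 0.212. Every fold checked lay within 0.05 of a step's length from a whole number of steps. The check did not extend to very high folds. The −log10 of the q-value was deposited with each peak.

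Overlapping or touching peaks, on chromosomes 1 to 22 and on X, were joined into regions. GENCODE release 44 gave gene bodies and TSSs. Condition-only regions with a fold at or above the median of their list were called strong. Motifs were sought in hg38 up to 100 bp from the summit of the region's strongest peak, on either strand. Each gene was named with its promoter peaks, its strongest condition-only region of either class, and the 3 shared regions of highest and of lowest ratio over the set. A few items are left unreported. The genes and lists were chosen with earlier results of these data known. The steps were tested on simulated data. RefSeq promoter tables, the RNA-seq and the ChIP-seq were not used here. Alternatives changed the q-value, list length, overlap, window, TSS definition, scale and motif window. The software was matplotlib 3.10.9, scipy 1.17.1, pandas 2.3.3 and numpy 2.4.6 under Python 3.11.15.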

Additional observations from a re-analysis of the deposited data

How the results depend on the processing

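Around the 10 genes, the Dox-only share stayed inside its interval in all 22 alternatives, from 51.8% with 100 kb on either side to 68.2% in regions nearest to the gene itself. Genes with a promoter peak in both lists numbered 7 to 9 over 7 alternatives. Dox-only and No-Dox-only counts were 14 and 12 at a q-value of at most 1e-05, 11 and 8 in strong regions, 18 and 13 with 20 kb on either side, and 15 and 7 in regions nearest to the gene. The Dox-only share of strong regions was 57.9% (interval 33.5 to 79.7%). It was 33.05% over all strong condition-only regions and 37.7% for those in windows of all coding genes. At the stricter q-value and with other window sizes, the share over all regions is not given. No-Dox-only regions numbered 40 with 100 kb. The median ratio of shared regions turned to 0.061 with 100 kb, to 3.73 percentile points as a difference of centred percentiles and to 0.070 without PHGDH, and it was −0.17 without PYCR1, so its sign is not settled. Leaving out each gene in turn gave shares of 52.4 to 63.0%. The nearest-gene regions, the centring by GC content and leaving out a gene were chosen after seeing the data. Matches within 50 bp and in the whole region were 2 and 25 for TEAD, 8 and 23 for AP-1, 2 and 14 for the C/EBP-ATF element, 0 and 15 for the E-box and 9 and 44 for NFY. They were 17 and 39 for the GC box and 4 and 21 for the reversed TEAD sequence. Within 50 bp the shares were 2.27% for TEAD, against 8.49% of all regions, and 4.55% for its reversed control, against 2.78%. The C/EBP-ATF share there was 2.27%, near the 2.06% of all regions, and the E-box share was 0%, against 1.69%. AP-1 stood at 9.09%, against 10.6%, NFY at 10.2%, against 13.1%, and the GC box at 19.3%, against 7.23%. In the whole region the C/EBP-ATF share was 15.9%, against 10.9%, and the E-box share 17.0%, against 9.43%. No paired analysis was possible because each list pools its replicates, and no replicate could be left out for the same reason. Without read counts, a Dox or No Dox peak just under the lists' threshold cannot be told from closed chromatin.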

Other observations

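Other genes of amino-acid synthesis and interconversion, such as glutamine synthetase (GLUL) and the cytosolic serine hydroxymethyltransferase (SHMT1), had a promoter peak in both lists in 17 of 23 cases. Among all coding genes 65.3% had one in both lists. BCAT2, the mitochondrial partner of BCAT1, and ASPG, an asparaginase, had one in Dox alone, and ARG1, CBS and OTC had none. Their windows held 371 regions, of which 116 were Dox-only and 110 No-Dox-only (51.3%, interval 44.6 to 58.0%), and their 145 shared regions had a median centred log2 ratio of 0.17, with 20 at least 1.5-fold higher in Dox and 8 at least 1.5-fold lower. As above, the Dox-only share was 33.0% over all regions and 39.7% in the pooled windows of all coding genes. Of all shared regions 11.0% were at least 1.5-fold higher in Dox and 10.1% at least 1.5-fold lower. Dox-only regions were the more numerous at 8 of these 23 genes and No-Dox-only regions at 10, against 44.7% and 33.5% of coding genes.

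ATF4 and 25 other genes of its programme, among them amino-acid transporters and aminoacyl-tRNA synthetases, had a promoter peak in both lists with the exception of NUPR1, which had none. Of all coding genes, 65.3% had one in both lists and 24.9% in neither. The 224 regions of these genes comprised 78 Dox-only and 35 No-Dox-only regions (69.0%, interval 59.6 to 77.4%), against 33.0% over all regions and 39.7% in the windows of all coding genes. In windows of coding genes with a GC content above 50% the share was 73.7%. The GC content of the windows of this list is not given, and its part in the 69.0% was not tested. Dox-only regions were the more numerous at 18 genes and No-Dox-only regions at 5, against 44.7% and 33.5% of coding genes. The 111 shared regions had a median ratio of 0.12, with 10 at least 1.5-fold higher in Dox and 12 at least 1.5-fold lower, beside 11.0% and 10.1% of all shared regions. These lists were read against the same backgrounds as the 10 genes, and no test was made of any difference between lists.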
